A study of Mus musculus with 32 samples.

Results

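Transcript levels in the small intestine of female mice without a functional Fabp6 gene were compared with those of female mice that carry it. The comparison used 16 of the 32 arrays of the series, namely 8 pools of RNA from female mice (4 Fabp6-null and 4 Fabp6-intact), each measured with 2 Affymetrix chips, 430A and 430B. The Fabp6-intact pools were WT 1 and 2 (C57BL/6J) and Fabp2-/- 1 and 2 (labelled Fabp2KO), and the Fabp6-null pools were Fabp6-/- 1 and 2 (Fabp6KO) and Fabp2-/-;Fabp6-/- 1 and 2 (Fabp26KO, called double-null here). All mice were 10 weeks old, fasted, untreated and fed Purina chow. The deletions are whole-body deletions on the C57BL/6J background, and the double-null line came from crossing the single-null lines, so that loss of Fabp6 and other differences between the lines cannot be told apart. Each pool combined the RNA of a pair of mice from the whole small intestine between stomach and cecum, which was flushed but not divided into segments or cell types.

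Fabp6 encodes the ileal lipid-binding protein, which carries bile acids through the cytosol of enterocytes of the distal small intestine. Bile acids enter these cells through the apical transporter encoded by Slc10a2, leave through the basolateral pair Slc51a and Slc51b, and on the way activate the nuclear receptor FXR (Nr1h4), whose ileal targets include Fabp6 itself and the hormone gene Fgf15. Fabp2 encodes the intestinal fatty acid-binding protein of the same family, and Fabp1 the liver-type protein that enterocytes also make.

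Signals are log2 values normalized with robust multichip average (RMA), and the pool values of a gene are given in the order WT 1, WT 2, Fabp2-/- 1, Fabp2-/- 2 for the Fabp6-intact pools and Fabp6-/- 1, Fabp6-/- 2, double-null 1, double-null 2 for the Fabp6-null pools. A log2 fold change is the Fabp6-null minus the Fabp6-intact mean with Fabp2 status as a covariate. Its standard error (SE) and its Benjamini-Hochberg adjusted p come from limma's moderated test, and a gene was called at an adjusted p under 0.2 with a change over 0.5 in either direction. The 8 pools had median signals of 6.58 to 6.61 on the first chip, 430A, and of 5.89 to 5.92 on the second, 430B.

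Fabp6 itself did not follow the labels in 1 pool. Its signal was 10.50, 11.13, 10.90 and 10.84 in the intact pools and 4.80, 9.21, 4.91 and 5.04 in the null pools. The pool labelled Fabp6-/- 2 thus held Fabp6 transcript at a level between the other null pools and the intact pools. The log2 fold change of Fabp6 was -4.85 (SE 0.66, adjusted p 0.0105, n = 4 and 4) with this pool and -5.94 (SE 0.12, adjusted p 1.55e-12) without it. Because of this, the comparison was repeated without the pool labelled Fabp6-/- 2, and 36 of the 41 genes called with it were also called without it. The calls lost were those of Nktr, Tkfc, Mal, Zfpm1 and 1810014B01Rik. Fabp2 was 12.58, 12.89, 9.20 and 9.03 in the intact pools and 13.00, 12.83, 9.75 and 9.41 in the null pools, so that its signal followed the Fabp2 labels in every pool. Fabp1 lay between 12.59 and 12.82 in all 8 pools.

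A further difference between pools concerned ribosomal RNA. The control probe sets for 18S rRNA on 430A averaged 10.75 in Fabp6-/- 2 and 11.09 in double-null 2, against 5.97 to 7.67 in the other 6 female pools. Among the male pools, Fabp6-/- 1 was also high, at 11.00. The high 18S signal therefore occurred only in Fabp6-null pools, and the comparison was also repeated without the 2 female pools that carry it. The 3' minus 5' signal of Gapdh ranged from -0.10 to 0.05 over the female pools, and that of actin from -0.29 to -0.03. By 100 probe sets present on both arrays, 6 of the 8 female pools resembled most their own second array, whereas WT 2 (r = 0.20) and Fabp2-/- 1 (r = 0.46) resembled more a male pool of their genotype. Xist and the Y-linked Eif2s3y separated the labelled sexes without overlap on 430A.

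**Figure D1:**
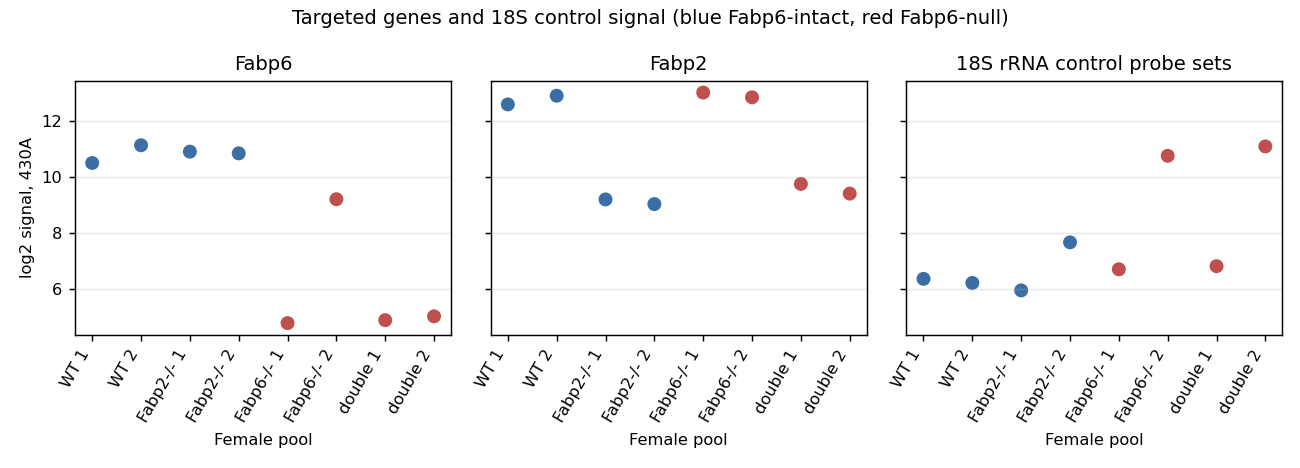
Log2 signal on 430A of Fabp6, of Fabp2 and of the 18S rRNA control probe sets (mean of the control probe sets) in the 8 female pools, 1 point per pool, blue for Fabp6-intact and red for Fabp6-null. Fabp6-/- 2 stands at 9.21 for Fabp6 while the other null pools lie between 4.80 and 5.04, and Fabp6-/- 2 and double-null 2 have the highest 18S signals, 10.75 and 11.09.

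Few genes were called between the Fabp6-null and Fabp6-intact pools, which does not show that few changed. An unadjusted limma p under 0.05 was found for 1501 of the 18195 genes. Where nothing changed, chance would put a share of 0.05 of tests under this limit, so 1501 is not a count of changed genes. Changes of opposite direction in Fabp2-intact and Fabp2-null pools can also cancel in this comparison. Of 18195 genes tested, 41 were called (0.225%), of which 17 rose (0.0934%) and 24 fell (0.132%), and 6 were called at an adjusted p under 0.05 (0.0330%). These 6 were Fabp6, Ctse, Bak1, Ceacam10, Tmed7 and Sptssb. For 26 of the 41 genes all 4 null pools lay on the same side of all 4 intact pools, which held for 3.98% of all genes. Without Fabp6-/- 2, 70 genes were called (0.385%), 31 higher (0.170%) and 39 lower (0.214%), and 36 of them were among the 41. Without both pools of high 18S signal, 53 genes were called (0.291%), 17 higher and 36 lower, and 25 of them were among the 41. The count was 14 without double-null 2, 23 without Fabp2-/- 1 (16 higher and 7 lower) and 68 without Fabp2-/- 2, and after cyclic loess it was 34, with 18 higher and 16 lower. With 18S signal as a covariate, 15 genes were called.

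**Figure D2:**
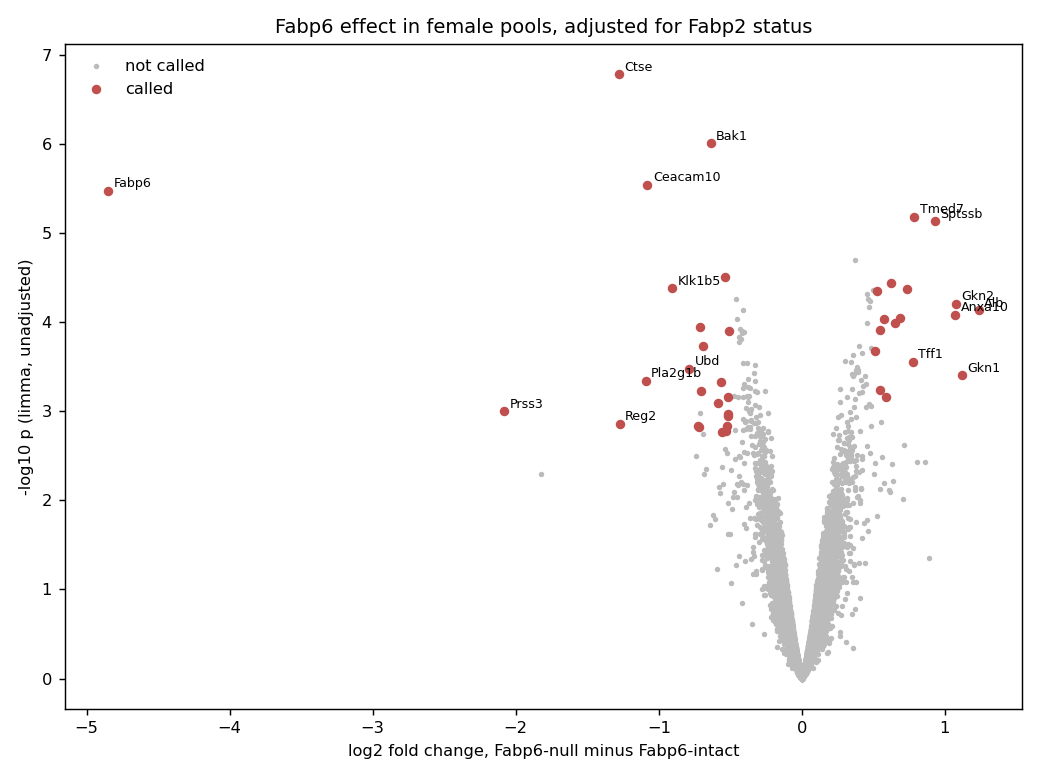
Log2 fold change (Fabp6-null minus Fabp6-intact, horizontal axis) against -log10 of the unadjusted limma p (vertical axis) for each gene and array in the 8 female pools. The 41 called genes are red, and Fabp6 at -4.85 lies far to the left of Prss3 at -2.08, the next largest fall.

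Apart from Fabp6, no gene of bile acid handling was called. Of 19 genes tested from a list of FXR targets and bile acid transporters, Fabp6 was the only one called in either direction, and the median log2 fold change of the list was 0.03 against 0.0057 over all genes. Slc10a2, which takes up bile acids, was 4.16, 5.005, 4.43 and 4.74 in the intact pools and 5.15, 4.62, 4.73 and 4.73 in the null pools (log2 fold change 0.23, SE 0.16, adjusted p 0.783). All these signals were low, below the pool medians of either chip, so that a change of Slc10a2 could be missed. Slc51a, which encodes a subunit of the exporter, differed by 0.03 (SE 0.08, adjusted p 0.965) and Slc51b by -0.02 (SE 0.07, adjusted p 0.994). Fgf15, the enterocyte hormone that represses hepatic bile acid synthesis, was 5.52, 5.59, 6.02 and 6.47 in the intact pools and 6.04, 5.95, 5.70 and 6.69 in the null pools (log2 fold change 0.20, SE 0.17, adjusted p 0.852). The groups overlapped for each of these 4 genes. Of the 13 genes of the Fabp family list, again only Fabp6 was called, and Fabp2 differed by 0.32 (SE 0.10, adjusted p 0.351) in a comparison that sets pools of equal Fabp2 status against each other.

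The genes next to Fabp6 on chromosome 11 were examined because a targeted line can carry flanking sequence of the strain in which the gene was disrupted. Within 10 Mb on each side, 120 genes were tested including Fabp6, and Fabp6 was the only one called, against 0.225% of all genes. An unadjusted p under 0.05 was found for 19 of the 120, against 1501 of all 18195 genes, and the difference between these shares was not tested. On the whole of chromosome 11, 5 of 1443 tested genes were called, Fabp6 included. The others, Tnfsf13os, Ndel1, Zfp672 and Gsdma2, lie outside this window. Chromosome 17 also held 5 called genes, of 834 tested.

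Among the called falls other than Fabp6, Bak1 had the least spread. Bak1 encodes a mitochondrial pore protein of apoptosis, and its signal was 9.02, 8.85, 9.01 and 8.81 in the intact pools and 8.30, 8.32, 8.33 and 8.20 in the null pools (log2 fold change -0.64, SE 0.08, adjusted p 0.00616). Every null pool lay below every intact pool, the pool labelled Fabp6-/- 2 included. The change was -0.64 without Fabp6-/- 2 (adjusted p 0.0092) and -0.61 without both pools of high 18S signal (adjusted p 0.0467). A second probe set of Bak1 changed by -0.15. Ceacam10, of the carcinoembryonic antigen family, was 6.21, 5.81, 7.11 and 6.83 in the intact and 5.18, 5.46, 5.49 and 5.51 in the null pools (log2 fold change -1.08, SE 0.14, adjusted p 0.0105), with no overlap, and its other probe sets changed by -0.22 and -0.92.

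Ctse, the endosomal aspartic protease cathepsin E that is abundant in gastric epithelium, had the smallest p of all genes. Its signal was 9.54, 9.31, 8.77 and 8.89 in the intact pools and 8.47, 7.80, 7.81 and 7.31 in the null pools (log2 fold change -1.28, SE 0.13, adjusted p 0.00206). This holds for 1 probe set, and the other Ctse probe set, of higher mean signal, changed by 0.52. The direction of Ctse as a gene is therefore not settled by these arrays. The same applies to Tmed7, a cargo receptor of the secretory pathway, whose chosen probe set rose from 5.46, 6.04, 6.26 and 5.96 to 6.66, 6.55, 6.78 and 6.89 (log2 fold change 0.79, SE 0.11, adjusted p 0.0153), whereas its probe set of highest signal changed by -0.15. Ndel1, a dynein cofactor, fell by 0.51 in the chosen probe set (SE 0.10, adjusted p 0.0676) and changed by 0.22 in the brighter one. Nktr, a cyclophilin-related protein, fell by 0.54 on 430B (SE 0.09, adjusted p 0.104) while 2 probe sets on 430A changed by 0.19 and -0.21. Nktr was not called without Fabp6-/- 2 (-0.50, adjusted p 0.116) or without both pools of high 18S signal (-0.39, adjusted p 0.362). Arf6, a small GTPase of membrane traffic, rose by 0.65 in a dim probe set (SE 0.12, adjusted p 0.0635), while its brighter probe sets changed by 0.02 to 0.19, and it was not called without both pools of high 18S signal (0.56, adjusted p 0.252).

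Transcripts of digestive enzymes that acinar cells of the pancreas make formed the most numerous group of falls. Of 17 tested genes of the pancreatic acinar list, 6 were called lower and none higher, against 0.132% of all genes called lower. These 6 were Prss3, Pnliprp1, Prss2, Ctrc, Cela3b and Cpa1. All 17 had a lower mean in the null pools, with a median log2 fold change of -0.52 against 0.0057 over all genes. Without Fabp6-/- 2, 11 of the 17 were called lower, with a median of -0.61, against 0.214% of all genes called lower. Without both pools of high 18S signal 8 were called lower, with a median of -0.69. In that repeat 0.291% of all genes were called in either direction. The summed signal of the list on 430A ranged from 15.31 to 15.85 on the log2 scale in the null pools and from 15.63 to 16.38 in the intact pools, so that the groups overlapped. In whole-intestine RNA, fewer cells of a type and less RNA per cell cannot be told apart, and the part of attached pancreatic tissue in this result was not tested.

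Prss2, which encodes a trypsinogen, was 12.31, 12.27, 12.53 and 11.94 in the intact pools and 11.59, 11.99, 11.17 and 11.46 in the null pools (log2 fold change -0.71, SE 0.13, adjusted p 0.0676). Only Fabp6-/- 2 of the null pools reached the lowest intact pool. Prss3, another trypsinogen, was 7.12, 6.55, 9.81 and 8.51 in the intact and 5.46, 7.06, 5.29 and 5.84 in the null pools (log2 fold change -2.08, SE 0.50, adjusted p 0.156). The high values of Prss3 stood in the Fabp2-/- pools, and the 2 double-null pools were among the lowest. Ctrc, chymotrypsin C, was 7.57, 7.27, 7.73 and 8.34 in the intact and 6.97, 7.25, 6.88 and 6.99 in the null pools (log2 fold change -0.70, SE 0.16, adjusted p 0.126), with no overlap. The related lipase Pnliprp1 fell by 0.73 (SE 0.18, adjusted p 0.186) with overlapping groups, and its call ended in 6 of the 8 fits that left out 1 pool.

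Further genes known from exocrine pancreas or from defence at the mucosa fell as well. Pla2g1b, the secreted phospholipase A2 of pancreatic juice, was 9.87, 10.01, 10.73 and 9.26 in the intact and 8.53, 9.29, 8.60 and 9.07 in the null pools (log2 fold change -1.09, SE 0.24, adjusted p 0.118). The kallikreins Klk1b5 and Klk1 fell by 0.91 (SE 0.16, adjusted p 0.055) and by 0.58 (SE 0.14, adjusted p 0.144), both with no overlap of the groups, though Klk1 on 430B changed by -0.09. Kallikrein genes are near-identical copies of each other, and their probe sets may not separate them. Reg2, a secreted regenerating protein, was 9.15, 9.47, 10.46 and 10.31 in the intact and 8.56, 9.60, 8.12 and 8.02 in the null pools (log2 fold change -1.27, SE 0.32, adjusted p 0.182), and it was the only 1 of the 15 tested genes of its list that was called. The Reg2 call ended in 13 alternatives, 5 of them the omission of a single pool, and without Fabp6-/- 2 the change was -1.69 (adjusted p 0.0092). Phgdh, the first enzyme of serine synthesis, was 8.34, 7.98, 8.16 and 7.76 in the intact and 7.24, 7.55, 7.49 and 7.72 in the null pools (log2 fold change -0.56, SE 0.12, adjusted p 0.12), and its other probe sets changed by -0.11 to -0.35. The remaining 29 of the 30 genes of the serine and amino acid response list were not called.

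Genes of antigen presentation by MHC class II, which display peptides from endosomes to T helper cells and are induced by interferon-gamma, fell in part. Of 12 genes tested, H2-Aa and H2-DMa fell and none rose, against 0.132% of all genes called lower, and the list median was -0.11. Without Fabp6-/- 2, 5 of the 12 fell (H2-Aa, H2-Ab1, H2-Eb1, Cd74 and H2-DMa), against 0.214% of all genes called lower. The list median was then -0.14. H2-Aa, the alpha chain of the I-A molecule, was 9.83, 10.22, 9.87 and 9.18 in the intact pools and 9.40, 9.93, 8.67 and 8.22 in the null pools (log2 fold change -0.72, SE 0.18, adjusted p 0.188). The low values were those of the double-null pools, and the groups overlapped. H2-Eb1, the beta chain of I-E, was 10.30, 10.42, 10.29 and 10.03 in the intact and 10.01, 10.40, 9.56 and 9.33 in the null pools, a log2 fold change of -0.44 that was not called (SE 0.12, adjusted p 0.257) and of -0.57 without Fabp6-/- 2 (SE 0.10, adjusted p 0.0407). The call of H2-Aa ended in 13 of the alternatives tried, and its value after leaving out 1 pool ranged from -0.90 to -0.51. The call of H2-DMa (-0.52 on 430A) also ended in 13 alternatives, 6 of them the omission of a single pool. Its probe set on 430B changed by -0.16 (adjusted p 0.927).

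In the interferon-gamma list, 3 of 23 genes were called without Fabp6-/- 2 (Ubd, Psmb9 and Ido1), all lower, against 0.214% of all genes called lower. With all pools 1 of the 23 was called, a fall, against 0.132% of all genes called lower. This was Ubd, the ubiquitin-like modifier FAT10, at 7.25, 7.21, 6.96 and 6.48 in the intact pools and 6.70, 7.01, 5.81 and 5.24 in the null pools (log2 fold change -0.79, SE 0.17, adjusted p 0.109). Psmb9, a subunit of the immunoproteasome, differed by -0.50 (SE 0.15, adjusted p 0.295) and by -0.70 without Fabp6-/- 2 (SE 0.10, adjusted p 0.00918), where it was called. None of the tested genes of the lists for T cells (17), B and plasma cells (16) and macrophages and granulocytes (15) was called, with medians of -0.05, -0.15 and -0.09. C1qc, the complement component of tissue macrophages, was lower in all 4 null pools but by less than the limit for a call (log2 fold change -0.37, SE 0.08, adjusted p 0.118).

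The promoters of H2-Aa and H2-Eb1 are shown because both genes, which lie in the MHC region of chromosome 17, are class II genes with low signal in the double-null pools and both carry the Y box, a conserved element of class II promoters. The sequences are promoter windows around the start of transcription from RefSeq on GRCm38.p6, 5′ to 3′ on the gene's strand, with CTGATTGG in capitals. H2-Aa is at chr17:34287774-34288073 on the minus strand and H2-Eb1 at chr17:34305617-34305916 on the plus strand.
H2-Aa: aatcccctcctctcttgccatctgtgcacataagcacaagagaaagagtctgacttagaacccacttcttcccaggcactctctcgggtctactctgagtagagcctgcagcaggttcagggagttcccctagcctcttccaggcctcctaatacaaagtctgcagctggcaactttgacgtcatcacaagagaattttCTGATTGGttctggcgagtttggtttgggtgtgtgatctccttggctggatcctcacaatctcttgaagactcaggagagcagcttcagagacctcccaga
H2-Eb1: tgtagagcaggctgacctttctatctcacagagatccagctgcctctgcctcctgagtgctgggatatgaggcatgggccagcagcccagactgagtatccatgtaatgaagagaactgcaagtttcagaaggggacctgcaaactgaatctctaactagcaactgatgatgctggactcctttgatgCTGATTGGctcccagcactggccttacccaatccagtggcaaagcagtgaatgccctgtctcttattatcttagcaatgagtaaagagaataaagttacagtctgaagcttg
The element begins 51 bases before the start in H2-Aa and 62 bases before it in H2-Eb1. Searched on both strands, CTGATTGG occurred in the promoters of 4.7% of 27025 genes and in 4 of the 9 class II list genes that the table holds (H2-Aa, H2-Eb1, H2-Eb2 and H2-Oa), of which only H2-Aa was called. H2-DMa, which was called, holds no match in its promoter windows. A match describes the sequence and not binding.

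Among the rises, some genes of the gastric surface epithelium stood out. Of 19 genes tested from the gastric epithelium list, 4 were called higher (Gkn1, Gkn2, Anxa10 and Tff1) and 1 lower (Ctse, in the probe set above). Over all genes 0.0934% were called higher and 0.132% lower. In the list 13 genes had a positive and 6 a negative log2 fold change, with a median of 0.13 against 0.0057 over all genes. Gkn1 and Gkn2, the gastrokines of mucous pit cells, are neighbours on chromosome 6. Gkn1 was 9.44, 8.48, 9.78 and 8.67 in the intact pools and 9.96, 10.36, 9.84 and 10.69 in the null pools (log2 fold change 1.12, SE 0.24, adjusted p 0.114). Gkn2 was 11.19, 10.43, 11.46 and 10.60 in the intact and 11.81, 12.12, 11.73 and 12.33 in the null pools (log2 fold change 1.08, SE 0.19, adjusted p 0.055). The null pools lay above the intact pools for both, with the highest values in the pools of high 18S signal.

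Anxa10, a gastric annexin, was 6.89, 6.10, 7.21 and 6.36 in the intact pools and 7.43, 7.70, 7.50 and 8.21 in the null pools (log2 fold change 1.07, SE 0.20, adjusted p 0.0635). Tff1, a trefoil peptide secreted with gastric mucus, was 11.64, 10.97, 11.85 and 11.20 in the intact and 12.08, 12.25, 11.95 and 12.48 in the null pools (log2 fold change 0.78, SE 0.16, adjusted p 0.102). Neither gene showed overlap of the groups. The markers of acid- and pepsinogen-secreting gastric cells had small differences, with -0.01 for Atp4a (SE 0.08), 0.03 for Atp4b (SE 0.07) and 0.16 for Pgc (SE 0.12), and none was called. The summed gastric signal on 430A was 13.58 to 14.08 in the null and 12.97 to 13.55 in the intact pools. Without both pools of high 18S signal the median of the gastric list was 0.0095, and none of the 4 genes was called. Their changes were then 0.81 for Gkn1 (adjusted p 0.445), 0.85 for Gkn2 (0.236), 0.83 for Anxa10 (0.252) and 0.60 for Tff1 (0.407). The part of stomach tissue at the cut end and of 18S signal in these rises was not tested.

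The promoters of Gkn1 and Gkn2 are shown because these neighbouring genes ranked the 8 pools in the same order and both hold TGATAAG, a form of the element bound by GATA factors. They are from RefSeq on GRCm38.p6 with the same window, Gkn1 at chr6:87350866-87351165 on the minus strand and Gkn2 at chr6:87373115-87373414 on the plus strand, and capitals mark TGATAAG, which Gkn1 holds on the other strand.
Gkn1: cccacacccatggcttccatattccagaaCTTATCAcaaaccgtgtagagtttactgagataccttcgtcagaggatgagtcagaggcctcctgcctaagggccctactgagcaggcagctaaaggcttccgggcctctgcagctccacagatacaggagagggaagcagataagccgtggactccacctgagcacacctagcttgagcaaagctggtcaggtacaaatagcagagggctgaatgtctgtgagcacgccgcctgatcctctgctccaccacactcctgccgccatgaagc
Gkn2: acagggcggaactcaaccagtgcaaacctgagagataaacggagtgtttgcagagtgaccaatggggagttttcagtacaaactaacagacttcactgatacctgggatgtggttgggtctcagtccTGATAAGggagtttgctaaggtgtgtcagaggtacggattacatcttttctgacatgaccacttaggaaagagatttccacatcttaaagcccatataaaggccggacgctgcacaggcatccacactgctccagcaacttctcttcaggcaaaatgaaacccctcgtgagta
The element begins 221 bases before the start in Gkn1 and 123 bases before it in Gkn2. On both strands TGATAAG occurred in the promoters of 2.71% of 27025 genes and in 3 of the 13 gastric list genes in the table, Gkn3 being the third. Gkn3 was not called and differed by -0.01.

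Plasma protein transcripts typical of hepatocytes were also higher. Of 12 genes tested, 3 were called higher (Alb, Apoa2 and Ttr), against 0.0934% of all genes. All 12 had a higher mean in the null pools, and the median was 0.27 against 0.0057 over all genes. Alb, serum albumin, was 6.42, 7.18, 6.07 and 6.78 in the intact pools and 7.46, 8.09, 7.48 and 8.38 in the null pools (log2 fold change 1.24, SE 0.22, adjusted p 0.061). All null pools lay above all intact pools, and Fabp6-/- 2 and double-null 2, those of high 18S signal, were again highest. Without these pools the list median was 0.093. Alb was then at 0.85 (adjusted p 0.175) and still called, whereas Apoa2 at 0.29 (adjusted p 0.457) and Ttr at 0.38 (adjusted p 0.264) were not. With 18S signal as a covariate Alb was not called either. The summed signal of this list was 9.78 to 10.36 in the null and 9.40 to 9.67 in the intact pools. Bhmt, a liver enzyme of methionine synthesis that is not in the list, rose by 0.62 with no overlap (SE 0.11, adjusted p 0.055), and it was not called without both pools of high 18S signal (0.44, adjusted p 0.175).

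Of the other rises, Sptssb, a small subunit of the serine palmitoyltransferase that starts sphingolipid synthesis, was 6.30, 6.17, 7.42 and 6.93 in the intact and 7.35, 7.37, 7.60 and 8.22 in the null pools (log2 fold change 0.93, SE 0.14, adjusted p 0.0153). The groups overlapped only through Fabp2-/- 1, and within each Fabp2 state the null pools were higher. Sptssb was the only 1 of 21 tested genes of sphingolipid metabolism to be called. Gsdma2 and Gsdmc2, of the gasdermin family of pore-forming proteins, rose by 0.74 (SE 0.12, adjusted p 0.104) and 0.69 (SE 0.12, adjusted p 0.125), at low signals of 2.85 to 4.23 and 3.69 to 4.81. Without both pools of high 18S signal Gsdma2 was at 0.54 (adjusted p 0.362) and Gsdmc2 at 0.64 (adjusted p 0.429), neither called, and omission of a single pool ended the call in 3 of 8 cases for Gsdma2 and 5 of 8 for Gsdmc2. Zfp672, a zinc finger protein, rose by 0.57 (SE 0.11, adjusted p 0.0635).

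Most pathways of intestinal nutrient handling held no called gene. This was so for cholesterol synthesis (19 genes tested), sterol transport (12), fatty acid oxidation (30), fatty acid synthesis (18), lipid uptake and triglyceride synthesis (23), chylomicron assembly (13), cytochrome P450 families (39), glutathione metabolism (30) and proximal enterocyte markers (15), whose medians lay between -0.07 and 0.12. The background of 0.225% called would give less than 1 gene in each of these lists, so the counts carry little information on them. Without Fabp6-/- 2, 1 gene was called higher in each of the cytochrome P450 and glutathione lists. The proximal enterocyte marker Hsd17b6 was then called lower (-0.54, adjusted p 0.0845). Without both pools of high 18S signal, 1 cytochrome P450 gene was called higher and 1 gene of fatty acid oxidation lower. In sugar handling only Tkfc of 20 genes was called, a kinase of fructose breakdown that fell by 0.52 (SE 0.13, adjusted p 0.186), and this call ended without Fabp6-/- 2. Rbp2, the retinol-binding protein of enterocytes, was 12.24, 12.62, 12.66 and 12.70 in the intact and 12.20, 12.22, 12.16 and 12.17 in the null pools, a difference of -0.36 (SE 0.09, adjusted p 0.194) that was below the limit for a call although the groups did not overlap. Cyp4a14, a fatty acid hydroxylase, was 4.08, 4.25, 4.05 and 4.13 in the intact and 4.41, 4.70, 4.37 and 4.74 in the null pools (log2 fold change 0.43, SE 0.10, adjusted p 0.126), also below the limit for a call. Ileal enterocyte markers (14 tested, Fabp6 the only call) had summed signals of 13.63 to 13.74 in the null and 13.56 to 13.72 in the intact pools. These sums include Fabp6 itself, whose own fall lowers them in the null pools, so they do not show the other markers alone.

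**Figure D3:**
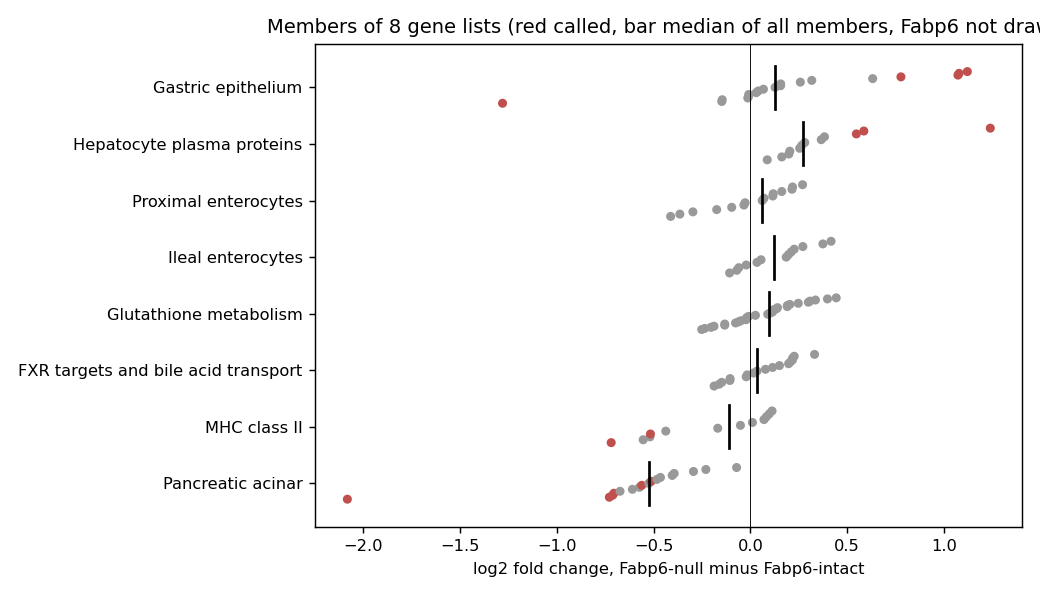
Log2 fold change (Fabp6-null minus Fabp6-intact, female pools) of each tested member of 8 gene lists, 1 point per gene, red where called, with a bar at the list median; Fabp6 is outside the axis and not drawn. The pancreatic acinar genes all lie below 0 with a median of -0.52, the hepatocyte genes all above 0 with a median of 0.27, and the gastric list has 4 called rises and Ctse as its called fall.

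Leaving out the pool labelled Fabp6-/- 2 added 34 called genes to those above. Rps4l, a ribosomal protein S4 copy, was 6.81, 6.29, 5.32 and 5.74 in the intact and 7.26, 7.30 and 7.76 in the remaining null pools, while Fabp6-/- 2 was at 5.43 (log2 fold change 1.48, SE 0.22, adjusted p 0.0147). Akr1c14, a steroid dehydrogenase, showed the same order with 6.68, 7.30, 7.12 and 6.68 against 8.32, 7.60 and 7.85, and 6.84 in Fabp6-/- 2 (log2 fold change 1.03, SE 0.16, adjusted p 0.0147). Dkc1, the pseudouridine synthase dyskerin, was at 0.93 (SE 0.15, adjusted p 0.116) with 4.48 in Fabp6-/- 2 against 4.89 to 5.32 in the other null pools. For these 3 genes Fabp6-/- 2 lay within the range of the intact pools, which follows in part from their choice as genes called only without it. Abcb1a, the efflux pump P-glycoprotein, was at 0.83 (SE 0.17, adjusted p 0.0585), but here the Fabp2-/- pools at 9.81 and 9.58 were low and WT 1 and 2 at 10.78 and 10.84 were near the null pools.

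Whether the effect of Fabp6 loss depended on Fabp2 was asked by comparing the double-null minus Fabp2-/- difference with the Fabp6-/- minus WT difference. This difference between effects was called for 125 genes (0.687%), 96 with a higher (0.528%) and 29 with a lower (0.159%) effect in Fabp2-null mice. For 114 of the 125 the effects ran in opposite directions, which follows in part from their choice for a large difference. The share over all genes was not counted, and 1 of the effects could be near 0. Akr1c19, for example, was at -0.03 in Fabp2-intact and at 1.25 in Fabp2-null pools. Each effect rests on 2 pools against 2, and without Fabp6-/- 2 the count was 429 (223 higher and 206 lower), without Fabp2-/- 2 it was 129 (69 and 60), without both pools of high 18S signal it was 129 (62 and 67), without double-null 1 it was 32 and without double-null 2 it was 31, without WT 2 it was 42 and without WT 1 it was 69. In 52 of the 96 genes the Fabp2-/- pools were the lowest of the 8, and in 35 the double-null pools were the highest, so that the order of the 4 genotypes differed among them. Such orders follow in part from the choice of the genes, and their shares over all genes were not counted. St3gal4, a sialyltransferase, had the largest difference. It was 11.86 and 11.79 in WT, 12.29 and 11.77 in Fabp6-/-, 10.50 and 10.33 in Fabp2-/- and 6.72 and 6.41 in double-null pools (difference -4.05, SE 0.22, adjusted p 1.36e-07). In males the double-null pools were at 6.63 and 11.41, so that the low level was present in 1 of the 2 male pools.

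Among the 96 higher effects were 16 genes of the lists for glutathione metabolism, carboxylesterases and conjugation, cytochromes P450 and efflux pumps. Of 30 tested genes of glutathione metabolism, 7 had a called higher and none a called lower Fabp6 effect in Fabp2-null mice. Over all genes 0.528% had a called higher effect. The median difference of the list was 0.31 against 0.024 over all genes. Gclc, the catalytic subunit of the enzyme that limits glutathione synthesis, was 9.15 and 8.99 in WT, 9.07 and 8.57 in Fabp6-/-, 8.24 and 8.30 in Fabp2-/- and 9.41 and 9.40 in double-null pools (difference 1.38, SE 0.20, adjusted p 0.0076). Gsta3, a glutathione transferase, was 5.79 and 5.89, 5.47 and 5.52, 5.31 and 5.29, and 6.16 and 6.31 in the same order (difference 1.28, SE 0.15, adjusted p 0.0035). Both genes were lowest in the Fabp2-/- pools and highest in the double-null pools. In the list of carboxylesterases, dehydrogenases and conjugating enzymes 6 of 31 had a higher and none a lower effect (median 0.41), among them Ces1d (1.62, SE 0.27, adjusted p 0.0229), Ces1g (1.12, SE 0.20, adjusted p 0.0369) and Ces2a (0.96, SE 0.17, adjusted p 0.0369), which hydrolyse esters of drugs and lipids. The cytochromes Cyp2b10 and Cyp2c55 differed by 1.13 (SE 0.16, adjusted p 0.0076) and 1.34 (SE 0.20, adjusted p 0.00769), and Abcb1a by 1.31 (SE 0.19, adjusted p 0.00769).

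Among single genes of this comparison, Akr1c19, an aldo-keto reductase, was 10.22 and 10.39 in WT, 10.42 and 10.13 in Fabp6-/-, 9.45 and 9.43 in Fabp2-/- and 10.62 and 10.75 in double-null pools (difference 1.28, SE 0.15, adjusted p 0.00664). Slc16a9, a carnitine efflux transporter, differed by 0.95 (SE 0.12, adjusted p 0.00664), Gas2l3, a cytoskeletal linker, by 1.09 (SE 0.13, adjusted p 0.00664) and 4931406C07Rik by 1.15 (SE 0.16, adjusted p 0.0076). All 3 were lowest in the Fabp2-/- pools. The Paneth cell products Mptx1 and Ang4 had differences of 1.18 (SE 0.26, adjusted p 0.112) and 0.77 (SE 0.15, adjusted p 0.12), 2 of 8 tested in their list. Pck1, the gate of gluconeogenesis, was low only in the Fabp6-/- pools at 8.69 and 8.86, against 9.49 to 10.01 elsewhere (difference 0.90, SE 0.17, adjusted p 0.099).

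Among the 29 lower effects were 3 of the 42 tested genes of the list of Neat1 and splicing-related RNAs, 2 of 15 of the Reg and Saa list, 2 of 17 of the goblet cell list and 1 of 12 of the MHC class II list. Over all genes 0.159% had a called lower effect. Neat1, the RNA scaffold of paraspeckles, was 11.14 and 10.95 in Fabp6-/- pools against 9.78 to 10.09 in the other 6 (difference -1.18, SE 0.18, adjusted p 0.00769), though its probe set on 430B differed by -0.05. Prpf4b, a splicing kinase, was likewise higher only in Fabp6-/- pools, at 5.84 and 5.52 against 4.46 to 4.75 (difference -1.04, SE 0.18, adjusted p 0.0229). Mlxipl, the glucose-responsive transcription factor ChREBP, at 9.74 and 9.53 against 8.78 to 9.05 (difference -0.90, SE 0.17, adjusted p 0.0485), and Muc2, the gel mucin of goblet cells, at 12.38 and 12.25 against 11.64 to 11.91 (difference -0.71, SE 0.14, adjusted p 0.12), had the same order. Reg2 (-2.08, SE 0.32, adjusted p 0.011), Prss3 (-3.03, SE 0.59, adjusted p 0.0646) and the acute-phase gene Saa1 (-1.68, SE 0.36, adjusted p 0.109) were instead highest in the Fabp2-/- pools, and Cd74, the invariant chain of MHC class II, was lowest in the double-null pools, at 11.21 and 10.61 against 11.85 to 12.10 (difference -1.02, SE 0.23, adjusted p 0.125).

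**Figure D4:**
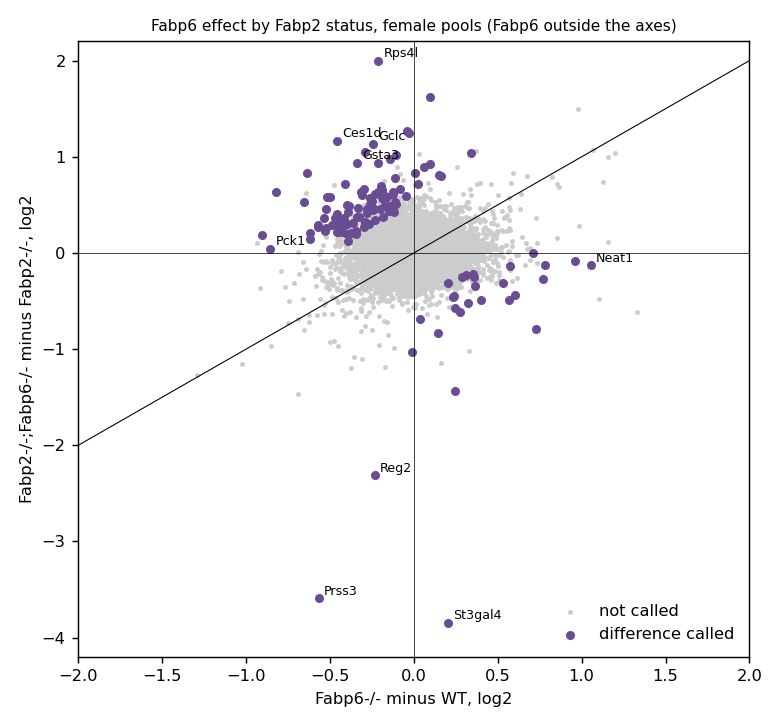
Fabp6 effect in Fabp2-intact female pools (Fabp6-/- minus WT, horizontal axis, log2) against the effect in Fabp2-null female pools (double-null minus Fabp2-/-, vertical axis, log2), 1 point per gene and array, with the line of equal effects; purple points are the 125 genes whose difference was called. St3gal4 lies at 0.20 and -3.85, Neat1 at 1.05 and -0.13 and Gclc at -0.25 and 1.13.

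The female results were set beside the 8 male pools of the same genotypes. The male pools did not enter the test that called the 41 genes, but they entered the choice of probe set for each gene. The agreement below is therefore not fully independent of the male values. Of the 41, 34 (82.9%) had the same direction in males, against 58.6% of all genes, and 29 of them had an unadjusted limma p under 0.05 there, which with the same direction held for 9% of all genes. The Fabp6 effect in males was -0.69 (SE 0.07) for Bak1, -1.11 (SE 0.19) for Ceacam10, 1.20 (SE 0.20) for Sptssb, 0.72 (SE 0.10) for Tmed7, 1.67 (SE 0.35) for Gkn1, 1.34 (SE 0.25) for Anxa10, 0.78 (SE 0.29) for Alb and -0.94 (SE 0.22) for H2-Aa. The chosen probe sets of all 8 have the direction seen in females, and the lines of mice are shared by both sexes.

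All 7 genes with the opposite sign in males were Prss3, Prss2, Pnliprp1, Cela3b, Cpa1, Pla2g1b and Klk1, enzymes of pancreatic or glandular secretions, and none of the 7 had a p under 0.05 in males. In the pancreatic acinar list 16 of 17 genes had a positive Fabp6 effect in males, with a median of 0.18, against -0.52 in females. Prss2 was at 0.13 (SE 0.26) in males and Prss3 at 0.01 (SE 0.60). The female minus male difference was called for no gene by limma, and the smallest adjusted p was 0.382. The pancreatic genes were thus not shown to differ between the sexes, and for Prss3 the difference was -2.09 (SE 0.85, adjusted p 0.981). An unadjusted limma p under 0.05 was found for 1007 of the 18195 genes. With no sex difference at all, chance would put a share of 0.05 of tests under this limit. The count of 1007 alone therefore does not show that any gene differed. The genes with the smallest p were Kdm5d, Matk, 1110038B12Rik, Rictor, Sfpq and Cyp7b1. Kdm5d is Y-linked, so its signals of 3.39 to 3.88 in female pools do not measure the gene. Its difference therefore does not compare a Fabp6 effect between the sexes. Among the others Matk, a tyrosine kinase that inhibits Src kinases, differed by 0.48 (SE 0.09, adjusted p 0.382), from 0.40 in females and -0.08 in males.

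**Figure D5:**
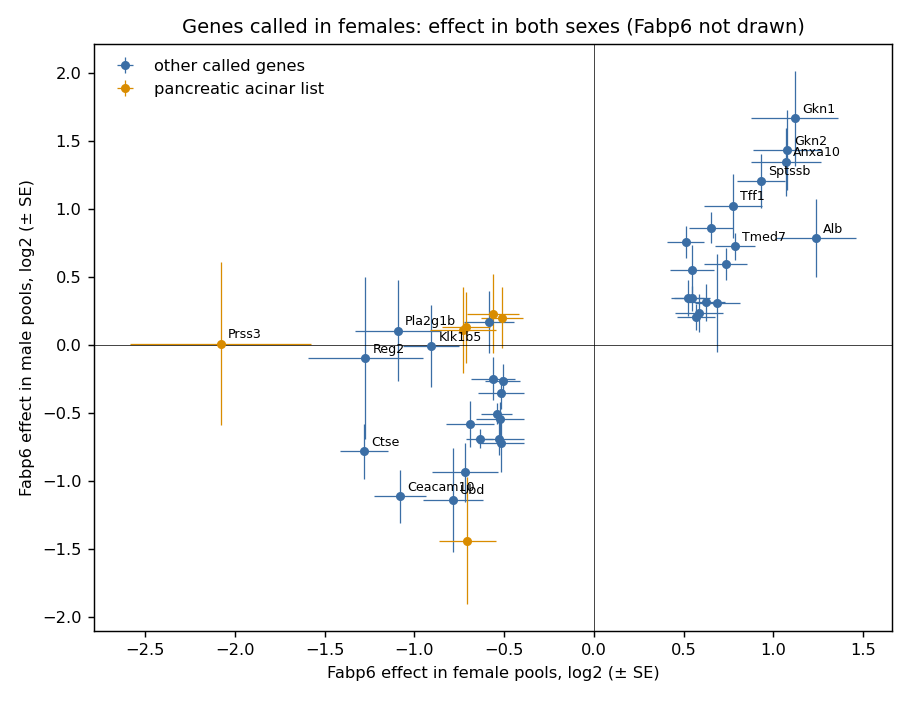
Fabp6 effect in female pools (horizontal axis) against the effect in male pools (vertical axis), log2 with SE bars, for the genes called in females other than Fabp6, orange for the pancreatic acinar list and blue for the rest. The called rises lie above 0 in both sexes, and 5 of the 6 pancreatic genes lie at or above 0 in males, Ctrc being the exception at -1.44.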

How the data were processed

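RNA of 16 pools (8 female) was measured on Affymetrix 430A and 430B arrays. The deposited values are log2 signals that the authors normalized with RMA for each array type (version not given in the sources used here), and the value table of the series holds the same numbers. The authors' fold changes and p-values were not used. Arrays carry no read depth, and their number limits the precision. In R 4.3.3 with limma 3.58.1, each gene was represented on each array by the probe set of largest interquartile range over the 16 arrays of that type, giving 12394 genes on 430A and 9612 on 430B, 18195 in all. Gene IDs were named through RefSeq (18033 of 18195 matched). A linear model with Fabp6 and Fabp2 status was fitted to the 8 female pools (residual df 5), followed by empirical Bayes moderation and Benjamini-Hochberg adjustment per array. The difference by Fabp2 status used an interaction term (residual df 4), and the difference by sex used all 16 pools (residual df 10). Named genes were the 12 largest called rises and 12 largest called falls without overlap of the groups, the 8 and 8 of the same kind without Fabp6-/- 2, Fabp6, Fabp2, Fabp1, called genes near Fabp6, up to 4 called members of each list (or 3 of smallest p) and the 6 smallest p of each interaction, and other bile acid, gastric, pancreatic and MHC genes were added after their values were seen. The members and lists were chosen with earlier results of these data known. The labels do not say how mice were assigned to pools, so p-values measure the spread between pools. The fits were tested on simulated data. Alternatives covered the probe set choice, filters, adjustment, normalization, covariates, replicate block, 18S signal and leaving out each pool.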

Additional observations from a re-analysis of the deposited data

Results flagged for a closer look

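In 3 of 74 groups of pools tested, a single pool lay far from the other 3 Fabp6-null pools by a gap test (Dixon). Chance alone exceeds the limit of this test in about 1 in 20 groups, so the number of flags is no more than chance would give. That number does not tell whether the gap of a single gene, such as Fabp6, is due to chance. Fabp6 was 9.21 in Fabp6-/- 2 with the nearest null pool at 5.04. Ceacam10 was 5.18 in Fabp6-/- 1 with the nearest at 5.46, and Tkfc was 9.21 in Fabp6-/- 1 with the nearest at 8.81.

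The Fabp6 effect differed by Fabp2 status for 125 genes by limma's interaction term. The 6 of smallest p were St3gal4 (difference -4.05), Gsta3 (1.28), Akr1c19 (1.28), Gas2l3 (1.09), Slc16a9 (0.95) and 4931406C07Rik (1.15).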

How the results depend on the processing

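The count of 41 genes for loss of Fabp6 was 23 with the probe set of highest mean signal, 64 with genes under the median interquartile range left out, 17 with an intensity trend and robust prior, 6 at an adjusted p under 0.05 and 20 with Fabp2 status left out. Leaving out each pool in turn gave 14 to 70. With 18S signal as a covariate, an alternative chosen after seeing the data like the omission of both pools of high 18S signal, it was 15. The count of 125 for the difference by Fabp2 status was 30 at an adjusted p under 0.05, 267 with all 16 arrays in 8 group means and 193 with the 18S covariate, and 31 to 429 with each pool left out. The count of 0 for the difference by sex was 1 after cyclic loess and 0 to 1 with each pool left out. With the probe set of highest mean signal the direction turned for Ctse (0.52), Tmed7 (-0.15) and Ndel1 (0.22), which are other probe sets of the same genes. Fabp6 kept its direction but not its call (adjusted p 0.334) with an intensity trend and robust prior, and the cause was not tested. Bak1 and Ceacam10 kept direction and call under each of the alternatives run. After cyclic loess 18 genes were higher and 16 lower, against 17 and 24.

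Pools share replicate numbers in the labels, but over the 6 pairs of groups the correlation of deviations of pools with the same number ran from -0.26 to 0.34 over both chips and exceeded 0.1 in 1 pair (Fabp2-/- with Fabp6-/-, on both chips), so that these numbers were treated as names without pairing. With a replicate block the counts were 38 for loss of Fabp6, 132 for the difference by Fabp2 status and 0 for the difference by sex.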
